A study of Mus musculus with 2 samples.

Results

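The genes of histamine, serotonin and heparin granule synthesis were followed across the sorted cells of the fetal mouse lung. They comprised 9 members, taken by symbol from the 32285 genes of the matrix: Hdc, Tph1, Ddc, Slc18a2, Slc6a4, Maoa, Srgn, Ndst2 and Hs6st2. All 9 were found. Fetuses were wild type, and their lungs were taken on gestation day 18. The mothers were 9 weeks old and otherwise untreated, and from gestation day 12 their drinking water held either the synthetic glucocorticoid dexamethasone (DEX) at 1.3 µg/ml or its vehicle, phosphate-buffered saline (PBS). Each group comprised 2 litters, with 8 and 9 fetuses pooled in DEX-1 and DEX-2 and 5 and 8 in PBS-1 and PBS-2, so that single fetuses could not be told apart. Each litter carried its own hashtag antibody, and live CD45+Lin-ST2+ cells, the gate for type 2 innate lymphoid cells (ILC2s), were sorted, pooled and loaded together into droplets for 5′ single-cell RNA sequencing.

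Mast cells and basophils store small amines and proteases in granules and release them when triggered. Histidine decarboxylase (Hdc) makes histamine from histidine in a single step, whereas serotonin takes a pair of steps, hydroxylation of tryptophan (Tph1) and decarboxylation by aromatic L-amino acid decarboxylase (Ddc). The vesicular transporter VMAT2 (Slc18a2) loads both amines into granules, the serotonin transporter (Slc6a4) takes serotonin up from outside, and monoamine oxidase A (Maoa) breaks it down. Serglycin (Srgn) is the core protein of the granule proteoglycan; Ndst2 deacetylates and sulfates its heparin chains and Hs6st2 adds 6-O-sulfate. Heparin is best known from connective tissue-type mast cells.

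Counts were unique molecular identifiers (UMIs, 1 per captured transcript), and levels are given as CPM, UMIs scaled to a total of 1000000 per litter and cell class, a scale on which a gene may be compared between cells but not with another gene. Among barcodes passing the filters, 7268 carried a single hashtag, 1737 to 1890 per litter, with medians of 7458 to 8325 UMIs per cell. Clusters were named from marker genes, and the 9 members and the related gene lists were kept out of the clustering. Although the gate was set for ILC2s, only 2073 cells (28.5% of singlets) were ILC2-like, against 2318 mast-like (31.9%), 492 basophil-like (6.77%) and 419 progenitor-like cells (5.76%). Each ILC2-like cluster held 10 of 11 ILC2 markers in at least 25% of its cells, the mast-like clusters 9 to 12 of 12 mast cell markers, the basophil-like cluster 11 of 11 and the progenitor-like cluster 9 of 10. Gata3, the transcription factor that defines ILC2s, was found in 18 of 2318 mast-like cells. Classes are clusters of the same cells, so levels are set side by side by class without a test.

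All members are protein-coding genes, located here with GENCODE M21 on GRCm38. Hdc lies on chromosome 2 (126593667 to 126619299, minus strand), Tph1 on chromosome 7 (46644641 to 46672537, minus), Ddc on chromosome 11 (11814101 to 11898144, minus), Slc18a2 on chromosome 19 (59260896 to 59296012, plus) and Slc6a4 on chromosome 11 (76998603 to 77032340, plus). Maoa and Hs6st2 lie on the X chromosome (16619698 to 16687818, plus, and 51387212 to 51681856, minus), Srgn on chromosome 10 (62493833 to 62527451, minus) and Ndst2 on chromosome 14 (20723730 to 20734562, minus). RefSeq promoters on GRCm38.p6, 250 bases before to 50 after the start, were found for 9 of 9 members, 13 in all. They were searched on both strands for GATA words (AGATAA, or AGATAG with a final G, and TGATAA, or TGATAG with a final G), since GATA factors act in mast cells as well as in ILC2s. A word was found in 5 of 13 member promoters and is common in general, in 29.8% of 32851 promoters. All 5 belonged to amine genes (Hdc, 1 of the 2 Tph1 starts, Slc18a2, Slc6a4 and Maoa) and none to Ddc, Srgn, Ndst2 or Hs6st2. The promoters of the histamine enzyme, the first serotonin enzyme and both transporters are shown because these genes carry most of the results, and capitals mark a GATA word or its reverse complement.
Hdc, chr2:126618629-126618928, minus strand: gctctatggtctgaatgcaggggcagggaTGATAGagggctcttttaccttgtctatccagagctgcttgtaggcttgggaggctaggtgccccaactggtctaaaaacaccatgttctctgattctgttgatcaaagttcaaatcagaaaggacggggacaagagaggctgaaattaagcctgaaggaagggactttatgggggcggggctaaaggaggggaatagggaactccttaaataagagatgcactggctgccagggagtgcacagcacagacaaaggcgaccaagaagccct
Tph1, chr7:46672488-46672787, minus strand: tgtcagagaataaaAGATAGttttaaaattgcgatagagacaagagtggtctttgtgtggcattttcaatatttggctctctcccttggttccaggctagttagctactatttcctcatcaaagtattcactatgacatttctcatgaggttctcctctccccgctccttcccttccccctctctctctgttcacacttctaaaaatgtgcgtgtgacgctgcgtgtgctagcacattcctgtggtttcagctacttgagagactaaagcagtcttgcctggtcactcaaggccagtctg
Slc18a2, chr19:59260628-59260927, plus strand: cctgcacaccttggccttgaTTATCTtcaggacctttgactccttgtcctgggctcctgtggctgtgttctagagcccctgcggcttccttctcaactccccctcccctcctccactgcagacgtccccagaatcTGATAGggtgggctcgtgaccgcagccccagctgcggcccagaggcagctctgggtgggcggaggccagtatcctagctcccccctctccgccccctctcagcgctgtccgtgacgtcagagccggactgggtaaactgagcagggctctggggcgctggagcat
Slc6a4, chr11:76998347-76998646, plus strand: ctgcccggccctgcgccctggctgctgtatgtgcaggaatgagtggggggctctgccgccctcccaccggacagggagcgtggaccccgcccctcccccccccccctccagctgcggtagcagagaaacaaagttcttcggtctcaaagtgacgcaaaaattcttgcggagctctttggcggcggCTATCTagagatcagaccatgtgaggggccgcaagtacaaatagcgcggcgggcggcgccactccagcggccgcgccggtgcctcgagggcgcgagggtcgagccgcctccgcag
The words began 221 bases before the start in Hdc, 236 in Tph1, 230 and 115 in Slc18a2 and 65 in Slc6a4. The E-box word CACGTG and its variant CACATG, bound by MITF, were in 1 member promoter (Slc6a4) and in 20.4% of all promoters, and the glucocorticoid half-site word AGAACA in 3 (Hdc, Slc18a2 and 1 of the 2 Srgn starts) and in 19.0%; no matches overlapped. These are matches of letters, not binding sites.

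Of the 9 members, 8 were highest in mast-like cells among the mast-like, progenitor-like, basophil-like and ILC2-like classes; Maoa was the exception. Hdc was measured at 13800 and 9848 CPM in mast-like cells of the DEX litters and at 10660 and 9351 in those of the PBS litters (mean 10910 ± 1998, SD, n = 4 litters). Progenitor-like cells held 4536 ± 451 CPM of Hdc and basophil-like cells 3153 ± 760, ranges that overlapped between those 2 classes and lay below every mast-like litter. Over all cells, ILC2-like cells had the lowest mean of the 8 named classes, 85.3 ± 26.0 CPM, 128-fold under mast-like cells. Their range overlapped that of B-like cells (19.6 to 759). The mesenchymal-like, endothelial-like and epithelial-like classes also held 1817, 666 and 414 CPM of the mast cell protease Cpa3, against 41.6 in ILC2-like cells. ILC2-like and B-like cells were also read without cells holding 3 or more UMIs of Cpa3, Mcpt4, Cma1 and Tpsb2 together. ILC2-like cells then held 65.3 ± 20.0 CPM of Hdc and B-like cells 31.8 ± 11.8. After each cell was thinned to 2000 UMIs, a UMI of Hdc was found in 99.9% of mast-like, 98.3% of basophil-like and 94.6% of progenitor-like cells. The transcript of the histamine enzyme was thus read in nearly every cell of the granule classes.

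The serotonin enzymes followed a steeper order. Tph1 stood at 1200, 1501, 1305 and 1747 CPM in mast-like cells of DEX-1, DEX-2, PBS-1 and PBS-2 (1438 ± 240.7), against 239 ± 73.1 in progenitor-like cells and 52.9 ± 67.8 in basophil-like cells. The basophil-like level rested on few cells. Of its 176 UMIs of Tph1, 110 came from 3 cells of PBS-2, each with at least 368 UMIs of the mast cell proteases Cpa3, Mcpt4, Cma1 and Tpsb2 (summed below as mast protease UMIs), and 175 came from cells with 3 or more such UMIs. The other litters held 20, 28 and 18 UMIs of Tph1 in this class. Cells with 3 or more mast protease UMIs also held 11250 of its 14011 Hdc UMIs, so that limit alone does not single out cells there. Ddc was measured at 160, 182, 210 and 204 CPM in mast-like cells (189 ± 22.8) and at 24.2 ± 8.86 in progenitor-like cells, whereas basophil-like cells (15 UMIs in 492 cells) and ILC2-like cells (46 UMIs in 2073 cells) were 49.6-fold and 69.2-fold lower than mast-like cells. Outside the granule classes, Ddc reached 40.7 ± 8.46 CPM in epithelial-like cells.

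The transporters separated the granule classes less evenly. Slc18a2 (VMAT2) was measured at 277, 266, 291 and 276 CPM in mast-like cells, at 131 ± 14.1 in progenitor-like cells and at 128 ± 21.5 in basophil-like cells, and the ranges of the latter pair overlapped. ILC2-like cells held 7.33 ± 1.66 CPM. Slc6a4, the serotonin transporter, stood at 632, 515, 636 and 573 CPM in mast-like cells (589 ± 57.3), 8.24-fold over progenitor-like cells (71.5 ± 17.2) and 9.18-fold over basophil-like cells (64.1 ± 7.53), which again overlapped each other. Maoa, which degrades serotonin, was near the limit of counting in mast-like (2.80 ± 1.07 CPM, 45 UMIs), basophil-like (2.70 ± 0.979) and ILC2-like cells (3.36 ± 1.48), whose ranges overlapped. It was highest in endothelial-like cells, at 59.1 ± 6.47 CPM, and reached 12.8 ± 1.44 in progenitor-like cells.

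Among the proteoglycan genes, the core protein was spread over all 4 classes, whereas the sulfation enzymes were not. Srgn was at 7312 ± 93.5 CPM in mast-like, 6224 ± 274 in basophil-like, 4999 ± 170 in progenitor-like and 1964 ± 172 in ILC2-like cells, with no overlap between neighbours among these 4 classes. Ndst2 was at 169 ± 9.16 CPM in mast-like and 114 ± 13.9 in progenitor-like cells, but at 26.7 ± 7.45 in basophil-like cells, 6.32-fold under mast-like cells. Hs6st2 was at 208 ± 16.9 CPM in mast-like and 125 ± 17.6 in progenitor-like cells, whereas basophil-like (10.4 ± 6.80) and ILC2-like cells (11.4 ± 2.90) overlapped. Hence basophil-like cells shared Hdc, Slc18a2 and Srgn with mast-like cells within 4-fold, while Tph1, Ddc and Hs6st2 were 27.2-fold, 49.6-fold and 20.0-fold lower there. Across thinned cells the median number of members with a UMI was 5 in mast-like (range 2 to 8), 3 in progenitor-like, 2 in basophil-like and 1 in ILC2-like cells. The 5 amine genes from Hdc to Slc6a4 were all read in 160 of 2082 thinned mast-like cells (7.68%).

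**Figure D1:**
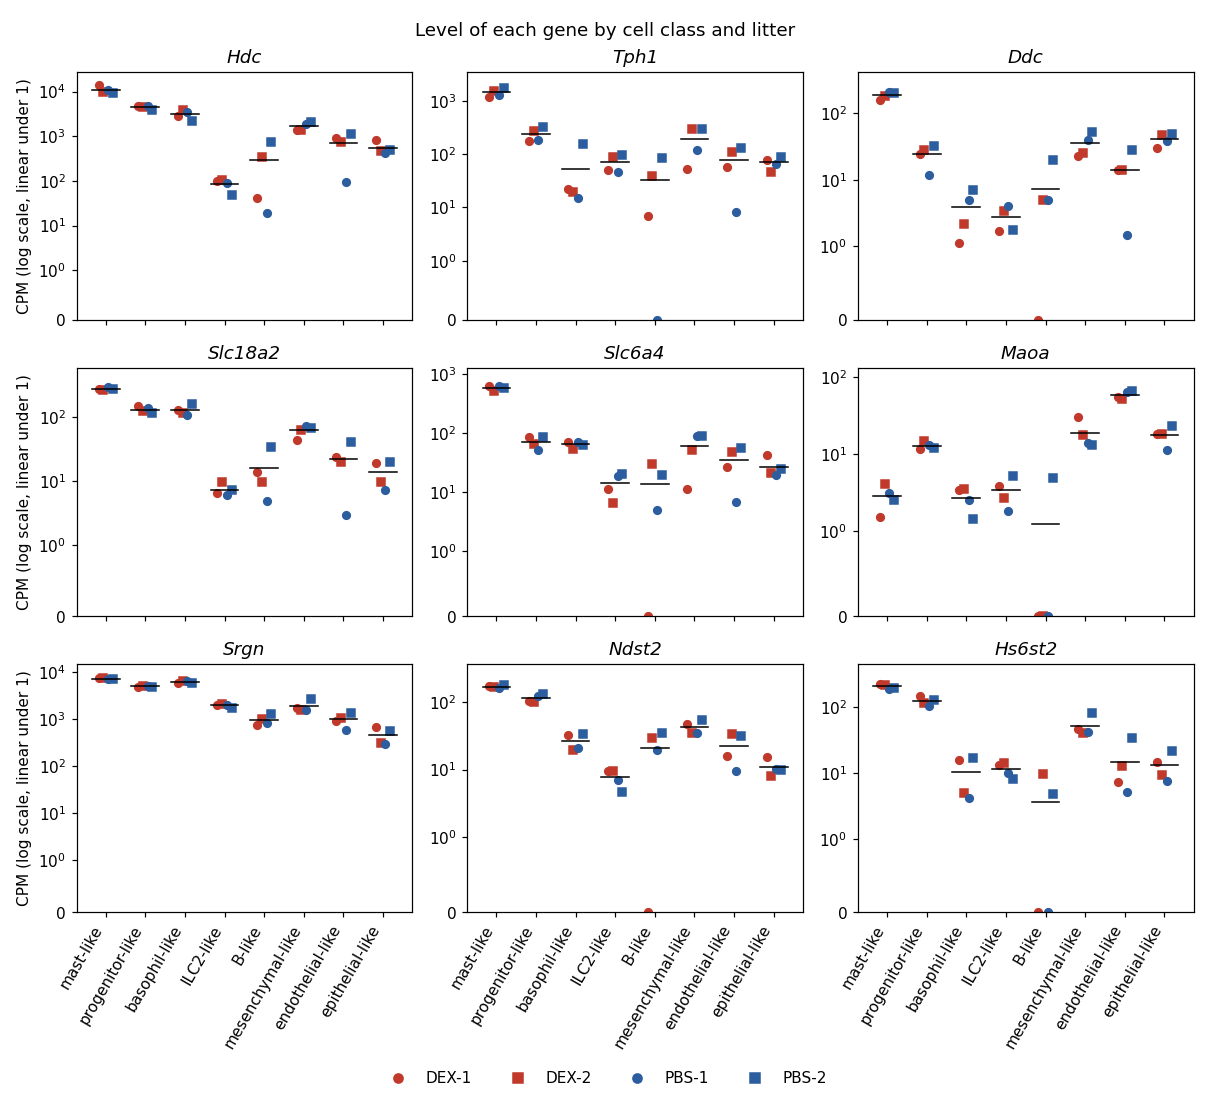
Level of each of the 9 genes (CPM, log axis that is linear under 1) by cell class, with a point for each litter and a line at the mean of the 4 litters. Mast-like cells are highest among the granule classes and ILC2-like cells for 8 genes, from 10910 CPM of Hdc to 169 CPM of Ndst2. Maoa is highest in endothelial-like cells at 59.1 CPM.

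Mast-like cells fell into 3 clusters, led by Mrgprb1 (152 cells), Mcpt2 (1320 cells) and Cma1 (846 cells), and the members differed among them. Slc6a4 was at 1640, 1367, 1197 and 1526 CPM in the Mrgprb1-led cluster for DEX-1, DEX-2, PBS-1 and PBS-2. The Mcpt2-led cluster (513 ± 52.8) and the Cma1-led cluster (492 ± 64.4) overlapped, and both lay below every litter of the former. Tph1 ran the other way, at 1006 ± 116 CPM in the Mrgprb1-led, 1365 ± 235 in the Mcpt2-led and 1830 ± 252 in the Cma1-led cluster. The Mrgprb1-led range (876 to 1132 CPM) touched that of the Mcpt2-led cluster (1112 to 1635), and all litters of the Cma1-led cluster (1674 to 2203) lay above both. The transcripts of the serotonin enzyme and of the serotonin transporter were thus highest in different mast-like clusters.

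The heparin genes were highest in the Mrgprb1-led cluster. This cluster and the Cma1-led one both held Mrgprb2, Mcpt4 and Tpsb2, markers of connective tissue-type mast cells, among their leading genes. Ndst2 stood at 278 ± 12.6 CPM there, against 165 ± 15.7 in the Mcpt2-led and 136 ± 6.50 in the Cma1-led cluster. Srgn was at 10780 ± 691 CPM there, against 6502 ± 203 and 8353 ± 357, with no overlap. Hs6st2 followed with 256 ± 15.97, 217 ± 21.4 and 159 ± 10.9 CPM, and Slc18a2 with 351 ± 28.3, 287 ± 8.28 and 222 ± 31.6, again without overlap. Ddc departed from this order, being highest in the Mcpt2-led cluster at 215 ± 30.03 CPM against 135 ± 21.0 and 133 ± 29.1. Hdc overlapped between all 3 clusters (12510 ± 1715, 10200 ± 2071 and 12530 ± 2432 CPM). Cells of the Cma1-led cluster were shallower, with a median of 3594 UMIs against 8874 and 7974.5 (Mcpt2-led), and the part of depth in these differences was not tested.

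**Figure D2:**
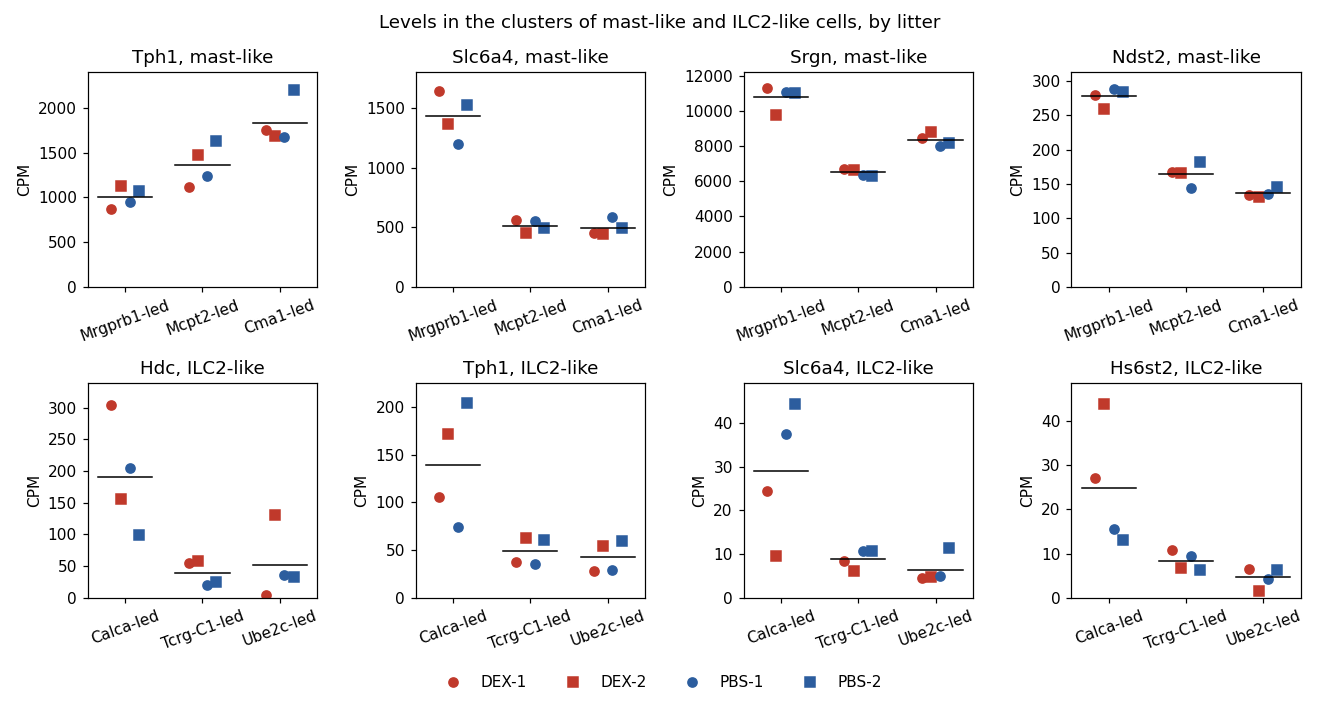
Levels (CPM) in the 3 clusters of mast-like cells (upper panels) and of ILC2-like cells (lower panels), with a point for each litter and a line at the mean. Slc6a4 peaks in the Mrgprb1-led cluster (1197 to 1640 CPM), Tph1 in the Cma1-led cluster (1674 to 2203 CPM), and among ILC2-like cells Hdc is highest in the Calca-led cluster (99.0 to 305 CPM).

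In ILC2-like cells low levels have to be read against free RNA. A UMI of Sftpc, an epithelial surfactant gene, was found in 77.2% of ILC2-like and 76.9% of B-like cells, which make no surfactant. B-like cells (199 cells, median 3528 UMIs against 7180 in ILC2-like cells), lymphocytes that are not granule cells, served as the background for the members. After thinning to 2000 UMIs per cell Sftpc was read in 39.3% of ILC2-like and 62.7% of B-like cells, so free RNA weighed more on the latter. In thinned cells Tph1 was read in 7.96% of ILC2-like cells (95% exact binomial interval 6.82 to 9.22%, counting error only) against 1.08% of B-like cells (0.131 to 3.85%), and Srgn in 93.2% (92.0 to 94.3%) against 73.5% (66.5 to 79.7%). These were the 2 members whose intervals did not meet. For Hdc the shares were 10.1% (8.79 to 11.4%) and 7.03% (3.79 to 11.7%), and for Slc6a4 2.88% (2.20 to 3.70%) and 0.541% (0.0137 to 2.97%). Without thinning the same classes gave 20.6% and 12.1% for Hdc and 7.77% and 1.51% for Slc6a4, and 290 of 2073 against 5 of 199 cells for Tph1. The thinned shares of Slc18a2 (1.66%) and Ndst2 (1.56%) in ILC2-like cells lay under those of B-like cells (2.16% and 3.24%), so no level above the background was shown. Of the B-like UMIs, however, 9 of 12 for Slc18a2 and 9 of 17 for Ndst2 came from cells with 3 or more mast protease UMIs. Without such cells ILC2-like cells held 6.69 ± 1.48 CPM of Slc18a2 and B-like cells 4.77 ± 6.57, ranges that overlapped. Of the 235 Hdc UMIs in B-like cells, 212 sat in 3 cells with at least 173 mast protease UMIs each.

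**Figure D3:**
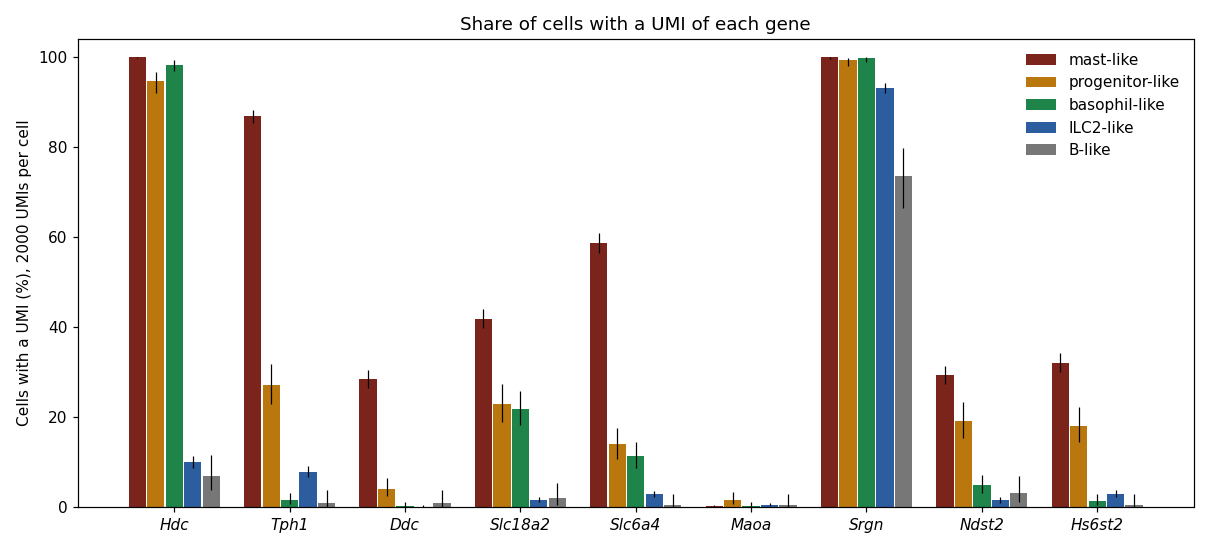
Share of cells (%) with at least 1 UMI of each gene after thinning every cell to 2000 UMIs, by class, with 95% exact binomial intervals as bars. Hdc and Srgn are read in nearly all cells of the mast-like, progenitor-like and basophil-like classes, and in ILC2-like cells the intervals of Tph1 and Srgn lie above those of B-like cells.

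The signal of Hdc, Tph1 and Slc6a4 in ILC2-like cells was concentrated in 1 of its 3 clusters, led by Calca, the gene of calcitonin gene-related peptide (797 cells, 34.9 to 46.1% of the class by litter). Hdc was at 305, 156, 204 and 99.0 CPM there in DEX-1, DEX-2, PBS-1 and PBS-2, and at 54.2, 57.8, 20.2 and 25.6 in the cluster led by Tcrg-C1 (893 cells). Every litter of the former lay above every litter of the latter, and 909 of the 1464 Hdc UMIs of the class came from Calca-led cells, as did 663 of 1266 Tph1 and 149 of 252 Slc6a4 UMIs. Tph1 was at 106, 172, 74.3 and 204 CPM in the Calca-led and 49.1 ± 14.5 in the Tcrg-C1-led cluster, and Hs6st2 at 27.1, 43.7, 15.4 and 13.1 against 8.32 ± 2.16. Slc6a4 was at 24.5, 9.59, 37.5 and 44.4 CPM in the Calca-led cluster, and its DEX-2 value lay within the range of the Tcrg-C1-led cluster (6.15 to 10.8). Thinned shares of Calca-led cells were 17.7% for Hdc (15.1 to 20.6%), 12.8% for Tph1 (10.6 to 15.4%) and 4.88% for Slc6a4 (3.47 to 6.63%), above the B-like intervals. In the third cluster, led by the cell cycle gene Ube2c (383 cells), Hdc averaged 51.1 CPM, 130 of them in DEX-2 and 5.25 in DEX-1.

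Hdc was also set against Cpa3 (carboxypeptidase A3, a mast cell protease). For each UMI of Cpa3 the Calca-led cluster held 4.86 Hdc UMIs (909 and 187 UMIs), the Ube2c-led cluster 1.44 and the Tcrg-C1-led cluster 0.814. The other classes held 0.820 (progenitor-like) to 2.27 (basophil-like), with 1.16 in mast-like and B-like cells and 1.73 in unnamed clusters. The ratio was taken for Hdc alone. Leaving out cells with 3 or more mast protease UMIs left the Calca-led levels at 182 CPM for Hdc, 136 for Tph1 and 28.7 for Slc6a4, whereas Hdc fell to 28.0 in the Tcrg-C1-led and 13.0 in the Ube2c-led cluster. Some ILC2-like cells held several UMIs of a member, and their source was not tested. A lack of mast protease UMIs was also seen in 43 basophil-like cells with at least 5 Hdc UMIs. At least 5 UMIs of Hdc were found in 75 ILC2-like cells, 38 of them without any mast protease UMI, and at least 5 of Tph1 in 87, 53 of them without. For Slc6a4 there were 7 such cells, 3 of them without, so that its class level came from many cells with few UMIs. Gata3 was read in 193 of 223 Calca-led cells with Hdc (86.5%), 148 of 159 with Tph1 (93.1%) and 94 of 98 with Slc6a4 (95.9%), against 88.9%, 87.0% and 87.1% of the remaining cells of that cluster. After thinning to 2000 UMIs the shares were 58.0%, 65.0% and 52.6%, against 61.8%, 60.5% and 61.5%, so that the Slc6a4 comparison turned round (20 of 38 cells).

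Hdc and Tph1 were seen together in 58 Calca-led cells, 26.0% of the cells with Hdc against 17.6% of those without, and Hdc and Slc6a4 in 20, 8.97% against 13.6%. After thinning the shares were 16.7% against 12.0% and 3.62% against 5.15%, so that neither pair was mainly found in the same cells at this depth. In progenitor-like cells Tph1 and Slc6a4 met more often: 28.8% of thinned cells with Tph1 held Slc6a4, against 8.42% of those without. Within mast-like cells the same values were 59.0% and 56.4%. Cells are not replicates, and these shares are given as a description.

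The genes with patterns most like each member were found by Pearson's r of log2(CPM + 1) over 64 sums of a cluster and a litter, among 13663 genes. The sums share libraries, and clusters differ in depth, so r only describes likeness. Hdc went with Cpa3 (0.956), Papss2 (0.951) and Adora3 (0.948), and Slc18a2 with Papss2 (0.923), Cpa3 (0.922) and Hdc (0.917). Tph1 was closest to Fndc5 (0.933) and Gm47599 (0.909), Ddc to Mlph (0.922), Cobl (0.922) and Rprm (0.891), and Slc6a4 to Pla2g7 (0.937), Nmb (0.908) and Otulinl (0.903). Papss2 makes the sulfate donor of proteoglycan synthesis, and Adora3 is an adenosine receptor. Srgn was closest to Psen2 (0.922), Ccdc22 (0.906) and Rbfa (0.903), Ndst2 to Gnaz (0.911), Kif1bp (0.910) and Tfcp2 (0.903), Hs6st2 to Eno2 (0.922), Creb3l1 (0.913) and Hpgds (0.912), the last a prostaglandin D2 synthase of mast cells, and Maoa to Msantd3 (0.870), Fam171a2 (0.844) and Itm2a (0.840).

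To ask whether maternal DEX changed these genes, UMIs were summed per litter within each class and the DEX litters were compared with the PBS litters (edgeR quasi-likelihood test over all genes, adjusted p by Benjamini-Hochberg, levels as TMM-scaled CPM). In ILC2-like cells 1 of 9 members was called, against 2.32% of the 10638 genes tested. It was Slc6a4, at 11.04 and 6.67 CPM in DEX-1 and DEX-2 and at 18.2 and 19.9 in PBS-1 and PBS-2. Both DEX litters lay below both PBS litters, with a log2 fold change of -1.08 ± 0.226 (SE; edgeR adjusted p = 0.0254). The counts behind it were small: 52 and 25 UMIs in 33 and 18 DEX cells, 72 and 103 UMIs in 43 and 67 PBS cells. Slc6a4 was read in 5.99% and 3.96% of the cells of the DEX litters and in 8.78% and 11.6% of the PBS litters, and after thinning in 2.19% and 2.22% against 3.93% and 3.18%, with intervals that overlapped.

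Slc6a4 was lower in DEX under every setting that gave a value, but its size and its call varied. Without ILC2-like cells holding 3 or more mast protease UMIs it was -1.08 (adjusted p = 0.0577), with DESeq2 -1.09 (adjusted p = 0.227), in the Calca-led cluster alone -1.19 ± 0.324 (adjusted p = 0.132) and in the Tcrg-C1-led cluster alone -0.53 ± 0.373 (adjusted p = 0.695). With any 1 litter left out the value ran from -1.51 to -0.79, in fits where 1 group held a lone litter. No value is given for the Ube2c-led cluster alone, where Slc6a4 had 39 UMIs. The Calca-led cluster, where Slc6a4 was highest, made up 35.9% and 34.9% of ILC2-like cells in the DEX litters and 46.1% and 37.1% in the PBS litters, and the part of this share in the class value was not tested. In sums of a class, fewer cells with a transcript and less of it per cell cannot be told apart.

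**Figure D4:**
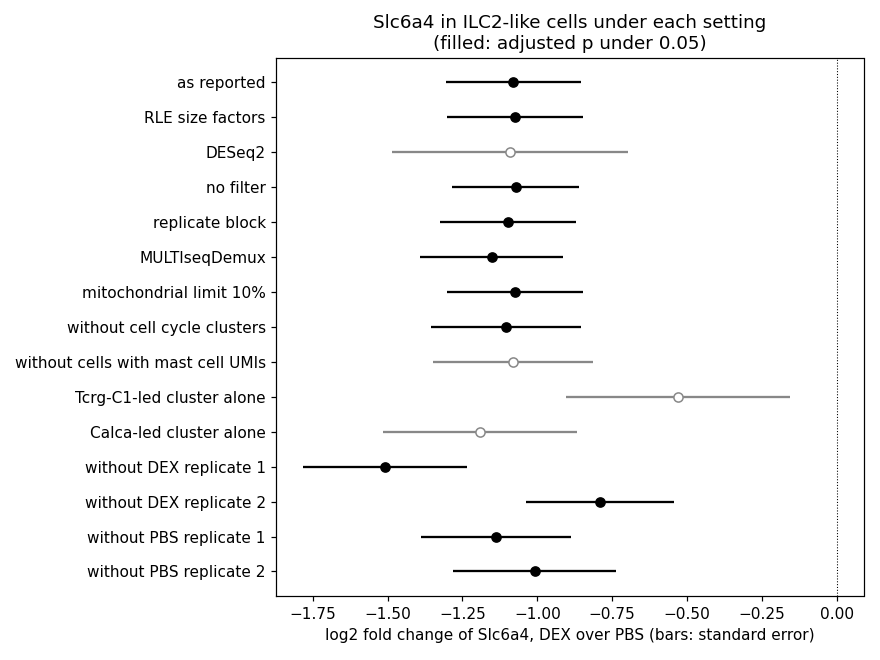
Log2 fold change of Slc6a4, DEX over PBS, in ILC2-like cells under each setting that gave a value, with bars for the standard error and filled points for an adjusted p under 0.05. All values lie below 0, from -1.51 to -0.53, and 4 settings lose the call: DESeq2, the removal of cells with mast protease UMIs, and the Tcrg-C1-led and Calca-led clusters taken alone.

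The other members were not called in ILC2-like cells. Hdc, at 99.2 and 107 CPM in the DEX litters and 88.1 and 48.0 in the PBS litters, gave a log2 fold change of 0.62 ± 0.189 (edgeR adjusted p = 0.133). In DEX-2, 199 of 401 Hdc UMIs sat in cells with 3 or more mast protease UMIs, 86 of them in 1 cell. Without such cells the litters overlapped, at 87.1 and 56.2 against 75.9 and 42.2 CPM, and the difference was 0.33 ± 0.219 (adjusted p = 0.626). In the Tcrg-C1-led cluster alone the difference over all cells was 1.26 ± 0.188 (adjusted p = 0.000915), from 54.2 and 57.8 against 20.2 and 25.6 CPM. Without cells holding mast protease UMIs the values there drew closer, to 29.6 and 38.8 against 20.4 and 23.3 CPM, a difference that was not tested, and B-like cells under the same limit held 31.8 ± 11.8. Of the heparin enzymes, Hs6st2 was at 13.4 and 14.4 against 9.87 and 8.13 CPM (0.63 ± 0.212, adjusted p = 0.191) and Ndst2, whose share did not exceed that of B-like cells, at 9.34 and 9.60 against 7.09 and 4.65 CPM (0.72 ± 0.272, adjusted p = 0.270). Srgn was at 1992 and 2174 against 1978 and 1743 CPM (0.16 ± 0.075, adjusted p = 0.407). In all, 5 of 9 members (Slc6a4, Hdc, Hs6st2, Ndst2 and Srgn) had DEX and PBS litters that did not overlap, close to the 42.6% of all genes tested, and for Hdc this ended without the cells holding mast protease UMIs. Tph1 overlapped, at 51.2 and 88.0 against 46.8 and 98.7 CPM (-0.12 ± 0.272, adjusted p = 0.934; called at -0.54 without DEX-2 and at -0.52 without PBS-1), as did Slc18a2 (0.26 ± 0.284, adjusted p = 0.805), and Ddc and Maoa stayed at 1.70 to 5.23 CPM in every litter.

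In mast-like cells, where the members were highest, 0 of 9 were called, against 0.00953% of 10492 genes. With edgeR 624 of these genes had an unadjusted p under 0.05, and DESeq2 called 5. Slc6a4 was at 635 and 517 CPM in the DEX litters and 628 and 583 in the PBS litters (log2 fold change -0.07 ± 0.125, edgeR adjusted p = 0.999). The mast-like minus ILC2-like difference in the Slc6a4 response was 1.04 ± 0.200 on the log2 scale, with an adjusted p of 0.0807 that missed the threshold (17 of 11553 genes, 0.147%, were called), so a difference between the classes was not shown. Ddc was the member with the lowest adjusted p, at 161 and 184 against 207 and 207 CPM (-0.27 ± 0.115, adjusted p = 0.817). Hdc (0.25 ± 0.155), Hs6st2 (0.20 ± 0.109), Srgn (0.03 ± 0.102), Ndst2 (-0.02 ± 0.120), Slc18a2 (-0.05 ± 0.105) and Tph1 (-0.18 ± 0.164) had adjusted p of 0.929 to 0.999. Litters did not overlap for 4 of 9 members (Ddc and Slc18a2 lower in DEX, Srgn and Hs6st2 higher), against 33.7% of all genes.

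Basophil-like and progenitor-like cells gave no called member. In basophil-like cells 7 of 9 members were tested, 0 were called, and 0% of 7438 genes were called (111 with an unadjusted p under 0.05 with edgeR, 0 called by DESeq2). Hdc there was at 2967 and 4056 against 3723 and 2161 CPM (0.26 ± 0.293, adjusted p = 1). The Tph1 difference of -1.86 ± 0.805 (adjusted p = 1) became 0.46 without PBS-2, the litter of the 3 cells with at least 368 mast protease UMIs each. In progenitor-like cells 0 of 9 members were called, against 0.0221% of 9053 genes. Hdc was at 4892 and 4707 against 4854 and 3879 CPM (0.14 ± 0.091) and Ndst2, the only member whose litters did not overlap (33.7% of all genes), at 106 and 102 against 121 and 129 CPM (-0.27 ± 0.148), both with an adjusted p of 0.998.

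**Figure D5:**
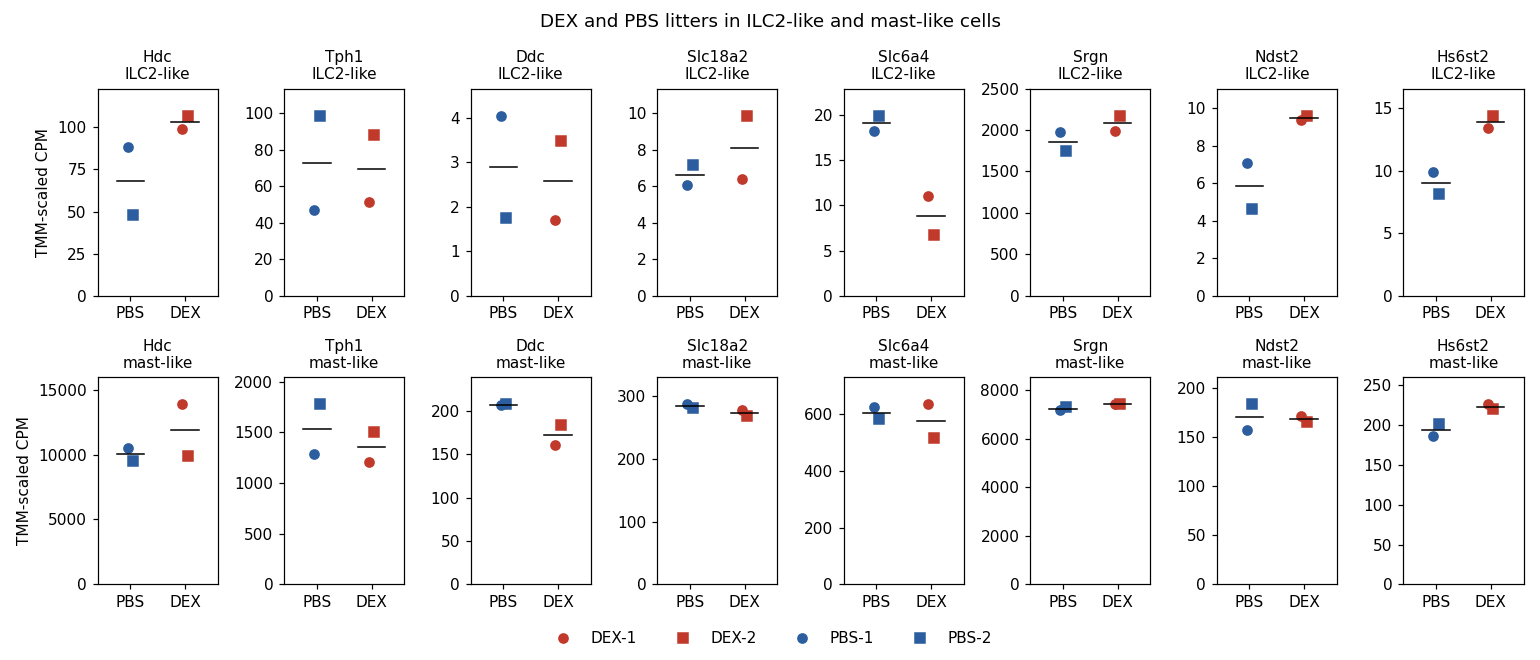
TMM-scaled CPM of 8 members (all but Maoa) in PBS and DEX litters, in ILC2-like cells (upper panels) and mast-like cells (lower panels), with a point for each litter and a line at the group mean of 2. Slc6a4 in ILC2-like cells, at 11.04 and 6.67 against 18.2 and 19.9 CPM, is the member called by edgeR.

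Genes of the related pathways were read from the same fits, where 2.32% of the 10638 genes tested in ILC2-like cells were called. Of the granule release genes 10 of 13 were tested in ILC2-like cells and 1 was called: Rab27b, a GTPase that brings granules to the membrane, at 340 and 359 CPM in DEX against 209 and 220 in PBS (0.70 ± 0.073, edgeR adjusted p = 0.000246). Cd63 and Vamp8, other genes of granule release, were at 2788 and 250 CPM in mast-like cells and were not called in ILC2-like cells, and Stx3 (130 CPM in mast-like cells) was too low there to be tested. Of the glucocorticoid receptor targets 11 of 11 were tested and 4 were called, Errfi1 (0.75), Sgk1 (0.50) and Zbtb16 (0.46) higher in DEX and Fkbp5 lower (-0.51), with edgeR adjusted p of 0.00601 to 0.0481. The targets with most UMIs in mast-like cells, Dusp1, Nfkbia and Tsc22d3, were not called. The median log2 fold change was -0.08 over the 10 granule release genes and 0.11 over the 11 targets, against -0.002 over all genes tested.

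None of the remaining lists held a called gene in ILC2-like cells (8 of 12 tested for monoamine synthesis and cofactors, 4 of 13 for transport and breakdown, 1 of 13 receptors, 21 of 29 for heparan sulfate and heparin, 9 of 12 for chondroitin sulfate), and 0 list genes were called in mast-like, basophil-like or progenitor-like cells. Genes that serve the serotonin steps were highest in mast-like cells: Pdxk (134 CPM), which makes the cofactor of both decarboxylases, and Gch1 (131) and Pcbd1 (99.5) of the biopterin cofactor of Tph1. Qdpr, which recycles that cofactor, was at 63.4 CPM in mast-like and 108 in ILC2-like cells. Maob, the other monoamine oxidase, was at 108 ± 16.4 CPM in mast-like cells, where Maoa was near the limit of counting, and at 0.696 in ILC2-like cells. Aldh2 was lowest in mast-like cells of the 4 classes, at 78.7 CPM against 166 (progenitor-like), 348 (basophil-like) and 109 (ILC2-like). Slc22a3, an uptake transporter of low affinity for amines, was at 68.8 CPM in mast-like and 79.9 in progenitor-like cells. It was at 31.0 in basophil-like and 5.37 in ILC2-like cells. Among 13 receptors only the histamine receptor Hrh4 exceeded 2 CPM in mast-like cells (24.9 CPM).

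Heparan sulfate genes other than the members were led in mast-like cells by Hs3st1 (1704 CPM), Ext1 (309), Papss2 (205) and Hs2st1 (136). Hs3st1, which adds the 3-O-sulfate of the antithrombin-binding site of heparin, was at 1112 CPM in ILC2-like cells too, whereas Ext1, which lengthens the chain, was at 14.8 and Papss2 at 4.58 there. Chondroitin sulfate genes reached 93.6 CPM (Chst11), 32.2 (Csgalnact2), 29.1 (Chpf2) and 28.6 (Chst12) in mast-like cells. Csgalnact2 and Chst12 were higher in basophil-like cells (45.8 and 77.3 CPM), whereas Chst11 and Chpf2 were lower there (18.1 and 11.6 CPM), as were Ndst2 and Hs6st2.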

How the data were processed

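The deposited values were raw UMI counts per gene and barcode in 1 matrix with 4 hashtags, made by the authors with Cell Ranger 7 on mm10 per the submitters' processing notes, with an annotation release not given in the sources used here. It held 10648 barcodes, 119146805 gene UMIs and 8754715 hashtag UMIs, and 0 columns belonged to other series. Barcodes with fewer than 200 genes (13) or over 5% mitochondrial UMIs (231) were dropped, and 10409 passed. HTODemux (Seurat 5.3.0, quantile 0.99) gave 7268 singlets, 736 doublets, which were dropped, and 2405 without a hashtag, which were not used; doublets within a litter share a hashtag and were not removed. Cells were clustered with scanpy 1.11.5 (2000 variable genes, 20 components, 15 neighbours, Leiden resolution 0.5). No cell annotation of the authors was used, so the class names are rebuilt, and where a value departs from the study's, the naming may be why. A name required 3 markers that each reached 25% of cells, an average share over markers of 30%, and no unrelated type above 60% of the leading one, limits set with the clusters known. Unnamed clusters held 804 cells.

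The litter was the replicate. A figure legend of the study gives another number of mothers than its methods, the labels and the hashtags, which were followed. UMI counts were summed per litter and class and tested with edgeR 4.0.16 (quasi-likelihood F-test, TMM, filterByExpr, two-sided, Benjamini-Hochberg over all genes, threshold 0.05). Standard errors are the log2 fold change over the square root of F. The difference between mast-like and ILC2-like responses was tested as an interaction with litter and class terms (2 residual degrees of freedom). With 2 litters against 2, an exact permutation test could not go below p = 0.333, so shares were not tested. In simulated counts the ILC2-like test recovered 70.0% of 100 genes changed 2-fold and 99.0% of those changed 4-fold, over 10628 genes. Changed genes were drawn from the better counted ones, at a fixed spread not estimated from these data, and 6 unchanged genes were called. Recovery for members with few UMIs, such as Ddc and Maoa, was not measured. Litter totals over singlets were 18665955 to 23660294 UMIs, and 3 counts in an ILC2-like litter equal 0.577 to 0.789 CPM.

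All 9 members are named in each class. List genes are named where called, with up to 4 others of highest mean CPM in mast-like cells, and the 3 most similar genes per member come from genes with 10 CPM or more in any sum of at least 20 cells. Of the genes these rules name, 2 are not reported here. Members and lists were chosen with earlier results of these data known. Promoters are RefSeq sequences and gene positions GENCODE M21, which held 99.6% of the gene rows.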

Additional observations from a re-analysis of the deposited data

How the results depend on the processing

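Of 10638 genes in ILC2-like cells, 247 were called, against 105 with DESeq2, 518 with no filter on low counts, 118 in the Tcrg-C1-led, 86 in the Calca-led and 68 in the Ube2c-led cluster alone (settings chosen after seeing the data), and 129 to 431 with a litter left out. In mast-like cells 1 gene was called, against 5 with DESeq2, 168 with no filter, 0 with MULTIseqDemux and 2 to 144 with a litter left out (144 without DEX-2). Basophil-like cells gave 0, 15 with no filter and 4 to 26 with a litter left out, and progenitor-like cells 2, 1 with DESeq2, 56 with no filter and 27 to 89 with a litter left out. The difference between classes gave 17, 96 with no filter and 26 to 82 with a litter left out, where the lone litter of a group is assumed to vary like the others. The number of members whose ILC2-like share lay above the B-like interval was 2, and 5 both with no thinning and without cells holding mast protease UMIs, which were not thinned. The cause of these shifts was not tested.

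The litter numbers were only names shared by a DEX and a PBS litter, with no stated pairing. With the replicate block 364 genes were called in ILC2-like, 183 in mast-like, 43 in progenitor-like and 0 in basophil-like cells, and Slc6a4 in ILC2-like cells stayed called (-1.10). Leaving out the cell cycle cluster could be run for ILC2-like cells alone, since the other classes had no such cluster.

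Slc6a4 in ILC2-like cells kept its sign in all 14 alternatives that gave a value and its call in 10. Some of these were fits with a litter left out, where a group held a lone litter. Signs turned for Slc18a2 in the Tcrg-C1-led cluster (-0.60), Tph1 in the Calca-led cluster (0.004) and Ndst2 in mast-like cells with MULTIseqDemux (0.004), none of them called. With a litter left out, log2 fold changes ran across 0 for Tph1 (-0.54 to 0.55) and Slc18a2 (-0.065 to 0.57) in ILC2-like cells, for Hdc (-0.014 to 0.49), Tph1 (-0.38 to 0.079), Slc6a4 (-0.22 to 0.087) and Ndst2 (-0.11 to 0.11) in mast-like cells, for Hdc (-0.081 to 0.71) and Tph1 (-2.79 to 0.46) in basophil-like cells, and for Hdc (-0.015 to 0.31) in progenitor-like cells. Tph1 in ILC2-like cells was called at -0.54 without DEX-2 and at -0.52 without PBS-1. The order of classes held: 8 members were highest in mast-like cells under every clustering, hashtag, mitochondrial and left-out-litter alternative run.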
